A study of Homo sapiens with 12 samples.

Results

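Genes named as hosts of small nucleolar RNAs (snoRNAs), most of them annotated as long non-coding RNAs, were followed in 2 lung cancer cell lines treated with inhibitors of the epidermal growth factor receptor (EGFR). The members are the rows of the deposited gene table named SNHG followed by a number (small nucleolar RNA host gene), together with GAS5 and ZFAS1. This rule uses names only, but it was set with earlier results of these data known. The rule found 30 genes among 60591. Of these, 27 had enough reads to be tested, while SNHG22 (20 reads over all libraries), SNHG27 (44 reads) and SNHG28 (0 reads) did not.

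The cells were PC9 and H1650, established non-small cell lung cancer lines. Both carry the same activating EGFR deletion according to the study's text, whereas the labels give the genotype of both as wild-type. In each line, cells collected at 0 h in 0.1% DMSO (T0) were compared with cells kept for 36 h in 10 µM erlotinib, a first-generation EGFR inhibitor, or in 0.1 µM osimertinib, a third-generation inhibitor. Each of the 6 groups had 2 replicates, which made 12 libraries of polyA RNA. The replicates are described as biological, but whether they came from separate cultures on separate days is not stated, so the errors measure the spread between these samples only. T0 was taken when the drugs were added, so a difference from T0 joins the drug to 36 h more in culture, and these cannot be told apart here. The drugs were given at different doses, so a difference between them is a difference between these treatments.

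A snoRNA host gene is transcribed as a long precursor whose introns carry the snoRNAs. After splicing, the intron is trimmed to the snoRNA, which binds a set of core proteins and guides chemical modification of ribosomal or spliceosomal RNA. Box C/D snoRNAs guide methylation of the ribose and box H/ACA snoRNAs guide conversion of uridine to pseudouridine, while scaRNAs do the same in Cajal bodies. The joined exons leave the nucleus as a long non-coding RNA (lncRNA), and several of these are short-lived because ribosomes that load on them bring on nonsense-mediated decay. GAS5, growth arrest specific 5, got its name because its RNA accumulates in cells that stop growing. Many hosts share with ribosomal protein genes a start rich in pyrimidines, the 5′ terminal oligopyrimidine (TOP) motif.

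Library totals ranged from 17961765 to 26346187 counted reads, of which the members took 0.0666% to 0.117%. Levels are given as normalized CPM, counts scaled by each library's size after TMM normalization. For a gene with 0 reads, the level that chance sampling still permits (3 reads) was 0.116 to 0.168 normalized CPM, counting error alone. Mitochondrial genes took 4.36% to 5.36% of reads at T0 and 5.77% to 7.20% after a drug. All 6 epithelial carcinoma markers examined (EPCAM, CDH1, KRT8, KRT18, KRT19 and EGFR) were at 185 normalized CPM or more in every library, and their summed level was 6578 to 6658 in PC9 after erlotinib, below the 9176 to 9245 at T0, and 5636 to 5646 in H1650 after erlotinib, below the 6839 to 7108 at T0. After osimertinib it was 9192 to 9934 in PC9 and 8525 to 9240 in H1650. Among markers of other cell types, the immune genes PTPRC and CD3E and the fibroblast gene DCN reached at most 0.224 normalized CPM, the endothelial genes PECAM1 and VWF reached 1.61 and 2.22, and the collagen gene COL1A1 ranged from 9.96 to 44.8. The summed level of these 6 was highest in PC9 after osimertinib (38.3 to 47.7, mostly COL1A1) and lay between 10.99 and 25.4 in the other groups. Whether the mitochondrial share or these markers had a part in the changes below was not tested. Values are relative to each library's total, so fewer cells that express a gene and less of its RNA per cell cannot be told apart.

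By the RefSeq positions on GRCh38.p14, 28 of the 30 members contain at least 1 named snoRNA or scaRNA within their span, 145 in all. SNHG14, the imprinted transcript of 15q11-q13 that runs through the SNORD116 and SNORD115 clusters, holds 83 of them. The other hosts share 62, of which 38 are box C/D, 20 are box H/ACA and 4 are scaRNAs. GAS5 holds 11 and SNHG1 holds 8, and SNHG15, SNHG8 and SNHG18 hold 1 each. In 13 hosts the snoRNAs are all box C/D, in 9 they are all box H/ACA, and in 4 they are scaRNAs. The following snoRNAs are shown because their hosts carry the main changes. The sequences are those of GENCODE 29 on GRCh38, 5′ to 3′, and the capitals mark the box C letters TGATGA and the box D letters CTGA, or the ACA near the end of a box H/ACA snoRNA.
SNORD49A of SNHG29, box C/D, chr17:16440036-16440106, plus strand: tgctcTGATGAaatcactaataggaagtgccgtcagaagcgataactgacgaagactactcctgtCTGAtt
SNORD48 of SNHG32, box C/D, chr6:31835263-31835326, plus strand: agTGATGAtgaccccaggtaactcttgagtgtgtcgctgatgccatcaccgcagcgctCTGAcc
SNORD12C of ZFAS1, box C/D, chr20:49278940-49279028, plus strand: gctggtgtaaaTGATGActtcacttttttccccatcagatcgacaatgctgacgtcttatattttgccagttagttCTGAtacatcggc
SNORD50B of SNHG5, box C/D, chr6:85677589-85677658, minus strand: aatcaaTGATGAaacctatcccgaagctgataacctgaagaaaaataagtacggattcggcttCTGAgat
SNORD60 of SNHG19, box C/D, chr16:2155023-2155105, minus strand: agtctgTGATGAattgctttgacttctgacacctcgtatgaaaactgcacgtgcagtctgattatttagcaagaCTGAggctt
SNORA17A of SNHG7, box H/ACA, chr9:136726747-136726879, minus strand: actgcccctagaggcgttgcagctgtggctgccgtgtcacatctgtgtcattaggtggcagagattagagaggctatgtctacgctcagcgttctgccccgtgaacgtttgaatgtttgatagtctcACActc
SNORA24 of SNHG8, box H/ACA, chr4:118279190-118279320, plus strand: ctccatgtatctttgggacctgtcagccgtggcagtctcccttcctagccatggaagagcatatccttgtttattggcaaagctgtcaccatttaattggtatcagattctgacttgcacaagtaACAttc
SNORD30 of SNHG1, box C/D, chr11:62853663-62853732, minus strand: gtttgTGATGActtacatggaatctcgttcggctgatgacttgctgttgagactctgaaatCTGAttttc
SNORA9 of SNHG15, box H/ACA, chr7:44985378-44985510, minus strand: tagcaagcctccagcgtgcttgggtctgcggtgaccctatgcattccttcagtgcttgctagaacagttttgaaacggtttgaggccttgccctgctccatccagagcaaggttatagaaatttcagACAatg
SNORA71A of SNHG17, box H/ACA, chr20:38427309-38427442, minus strand: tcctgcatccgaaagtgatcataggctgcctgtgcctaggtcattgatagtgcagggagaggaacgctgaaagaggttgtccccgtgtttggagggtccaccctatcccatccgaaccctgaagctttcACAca
SNORA73A of SNHG3, box H/ACA, chr1:28507366-28507571, plus strand: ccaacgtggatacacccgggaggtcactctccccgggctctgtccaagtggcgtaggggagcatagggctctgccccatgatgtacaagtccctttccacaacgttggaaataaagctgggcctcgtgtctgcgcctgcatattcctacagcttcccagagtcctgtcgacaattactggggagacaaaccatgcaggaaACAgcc
SNORD116-1 of SNHG14, box C/D, chr15:25051477-25051571, plus strand: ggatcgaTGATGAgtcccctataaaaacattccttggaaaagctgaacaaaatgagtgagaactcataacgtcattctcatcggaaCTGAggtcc
SNORD123 of SNHG18, box C/D, chr5:9548836-9548905, plus strand: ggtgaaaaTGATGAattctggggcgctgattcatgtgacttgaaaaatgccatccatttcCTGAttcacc

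Both box motifs were found in 17 of the 24 box C/D snoRNAs with a sequence outside SNHG14 (TGATGA starting within the first 20 bases and CTGA within the last 18), and an ACA stood within the last 8 bases of 20 of the 22 box H/ACA records. The letters searched are exact, so a box with a variant base was not counted. The host genes of both kinds were found among those that rose and among those that fell, as described below.

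Per length, the most highly expressed members in untreated PC9 cells were SNHG29, SNHG1 and SNHG19, at 30.7, 28.8 and 25.5 RPKM (reads scaled for library size and gene length, mean of 2 libraries). In untreated H1650 cells they were SNHG1, SNHG6 and GAS5, at 31.0, 29.5 and 25.1 RPKM. The lengths are those in the count table, and the ranking rests on them. In untreated PC9 cells, SNHG19 had a mean of 8.73 normalized CPM and a length of 342 bases. GAS5 had 88.0 normalized CPM and a length of 4842 bases. In 11 of the 27 tested members that length was at least 80% of the gene's span in GENCODE 29 (97.2% for GAS5 and 83.2% for SNHG3), and in 4 of the 11 it exceeded the span, so the gene models behind the counts differed from GENCODE 29. In SNHG14 it was 27.8%. Where nearly the whole span is counted as exon, the counts can include reads of unspliced precursor and of the snoRNAs in it.

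Of the 27 tested members, 20 differed between the untreated lines (74.1%, against 69.6% of all tested genes), 13 higher and 7 lower in H1650 (35.8% and 33.8% of all tested genes). SNHG14 differed most among the abundant members, with 5.04 and 4.99 normalized CPM in PC9 and 219 and 226 in H1650. The groups were far apart and the ratio was 44.3-fold (log2 difference 5.47 ± 0.11, adjusted p = 6.20e-25). SNHG18 had 0.151 and 0.296 normalized CPM in PC9, from 3 and 6 reads, and 18.98 and 19.8 in H1650 (log2 difference 6.40 ± 0.29, adjusted p = 2.75e-17). SNHG3 was 2.02-fold higher in H1650 (log2 difference 1.01 ± 0.093, adjusted p = 1.41e-10), SNHG6 was 1.85-fold higher and SNHG32 was 1.64-fold higher. SNHG4 and SNHG29 were lower in H1650, by 2.22-fold and 1.78-fold (log2 difference -1.15 ± 0.15 and -0.83 ± 0.077), and SNHG26 by 1.75-fold. SNHG1, SNHG15 and SNHG17 were not called, with log2 differences of 0.11 ± 0.082, -0.06 ± 0.10 and -0.12 ± 0.10. The calls of SNHG16, SNHG19, SNHG20, SNHG8 and SNHG9 were each lost when 1 T0 library was left out. These were H1650 replicate 1 for SNHG16 (0.26), PC9 replicate 1 for SNHG19 (-0.46) and SNHG20 (-0.43), and PC9 replicate 2 for SNHG8 (0.32). For SNHG9 they were PC9 replicate 2 (1.09) or H1650 replicate 1 (1.12). The SNHG9 call was also lost with DESeq2 (1.38, adjusted p = 0.0662).

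**Figure D1:**
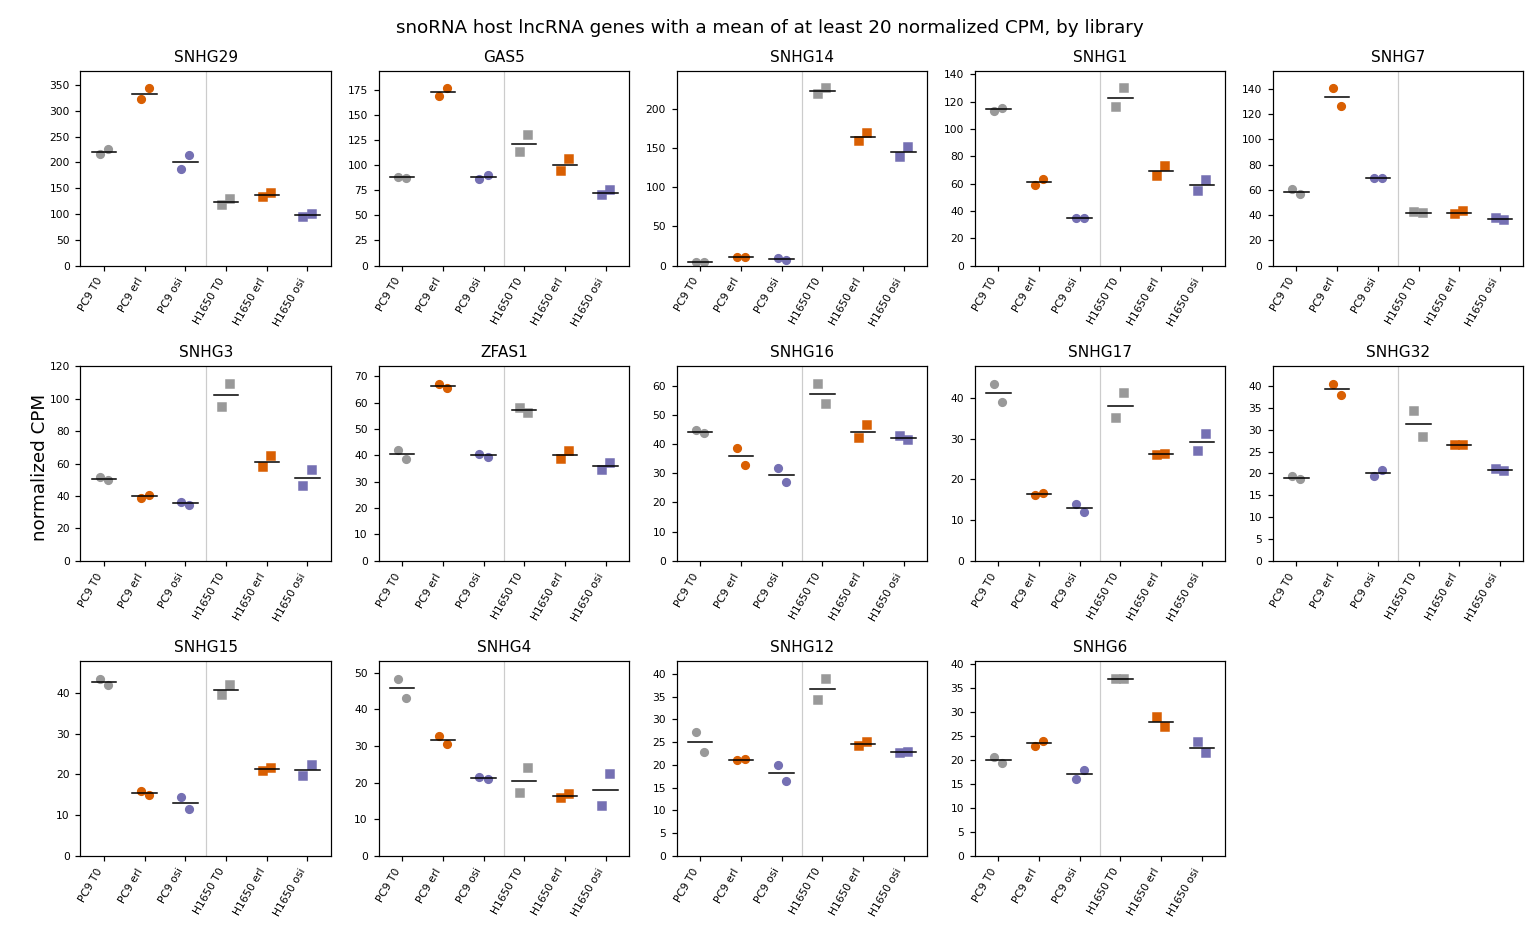
Normalized CPM (vertical axes, each from 0) of the 14 members with a mean of at least 20 normalized CPM, in each of the 12 libraries. Points are libraries, bars are group means, circles are PC9 and squares H1650. The erlotinib libraries of PC9 stand highest for GAS5, SNHG29, SNHG7, SNHG32 and ZFAS1, the T0 libraries stand highest within each line for SNHG1, SNHG15 and SNHG17, and SNHG14 is near the axis in PC9 only.

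Summed over all 30 members, the level in PC9 was 901 ± 24.0 normalized CPM at T0 (SD, n = 2), 1103 ± 2.59 after erlotinib and 689 ± 12.3 after osimertinib. In H1650 it was 1155 ± 52.5 at T0, 907 ± 33.9 after erlotinib and 773 ± 36.8 after osimertinib. The sum was thus highest with erlotinib in PC9 and highest at T0 in H1650, and it was lowest with osimertinib in both lines. SNHG29 made the largest contribution in PC9, and SNHG14 in H1650. Without SNHG14 and SNHG29, the order of the groups within each line was the same, with 697 and 653 at T0, 768 and 751 after erlotinib and 482 and 476 after osimertinib in the PC9 libraries, and 781 and 836, 592 and 621, and 515 and 548 in the H1650 libraries.

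**Figure D2:**
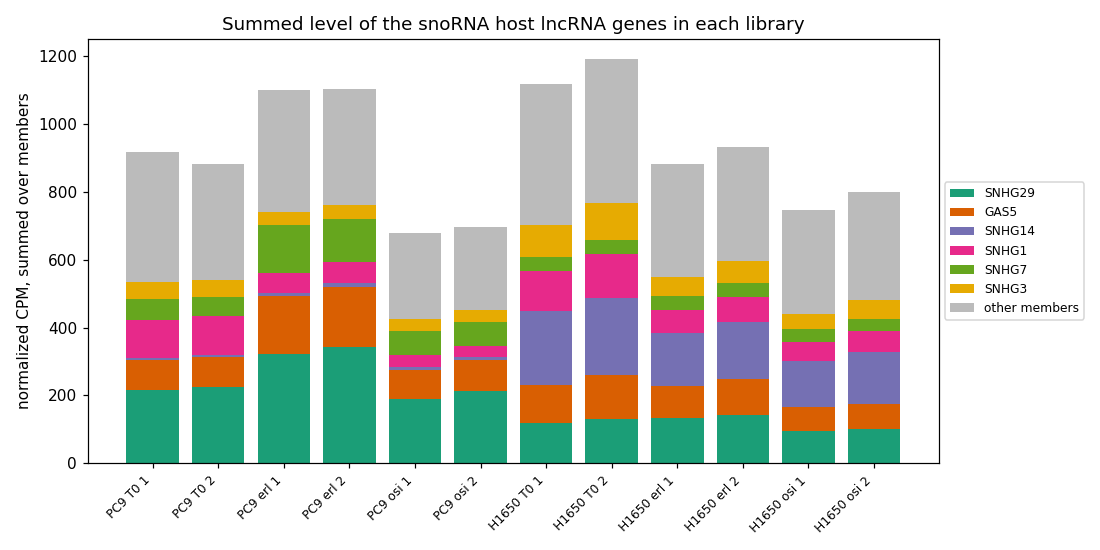
Summed normalized CPM (vertical axis) of the members in each library, with the 6 most abundant members in colour and the others in grey. The bars of PC9 after erlotinib reach 1101 and 1105 and those after osimertinib 680 and 697, while in H1650 the T0 bars of 1117 and 1192 are the tallest.

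In PC9 cells, 18 of the 27 tested members changed after erlotinib (66.7%, against 61.8% of all tested genes), so the share itself was close to that of all genes. There were 10 higher and 8 lower than at T0, which is 37.0% and 29.6% of the members against 32.7% and 29.1% of all genes. The median log2 change was 0.20 over the members and 0.074 over all tested genes. After osimertinib, 13 members changed (48.1%, against 61.4% of all tested genes), with a median of -0.13 against 0.064. Of these, 4 were higher and 9 lower, which is 14.8% and 33.3% of the members against 32.7% and 28.7% of all genes. Of the 13 hosts of box C/D snoRNAs alone, 7 rose with erlotinib and 4 fell, and of the 9 hosts of box H/ACA snoRNAs alone, 2 rose and 4 fell. None of the 3 tested hosts of scaRNAs was called.

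GAS5 had 88.5 and 87.4 normalized CPM at T0 in PC9, 169 and 176 after erlotinib and 86.1 and 90.5 after osimertinib. The erlotinib libraries were 1.96-fold above T0 (log2 change 0.97 ± 0.082, adjusted p = 3.17e-11), while the osimertinib libraries overlapped T0 (log2 change 0.00 ± 0.083). SNHG7, a host of box H/ACA snoRNAs, had the largest rise among the abundant members, from 60.8 and 56.3 to 140.2 and 126, or 2.28-fold (log2 change 1.19 ± 0.080, adjusted p = 2.77e-13). With osimertinib it reached 69.4 and 69.1 (log2 change 0.24 ± 0.081, adjusted p = 0.0112), a call lost without T0 replicate 2 (0.18) or without osimertinib replicate 1 (0.24). The call was also lost without the filter on low counts (0.16, adjusted p = 0.211) and with 1 fit per cell line (0.18, adjusted p = 0.0636). SNHG32, listed in GENCODE 29 as the protein-coding gene C6orf48, rose from 19.3 and 18.8 to 40.6 and 37.99 with erlotinib (log2 change 1.04 ± 0.11, adjusted p = 1.32e-09) and was at 19.3 and 20.7 with osimertinib (log2 change 0.07 ± 0.11). In these genes the erlotinib libraries stood clear of both other groups.

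SNHG29, listed as LRRC75A-AS1 in GENCODE 29, is the most abundant member in PC9 and rose from 216 and 225 normalized CPM to 323 and 344 with erlotinib (log2 change 0.60 ± 0.076, adjusted p = 9.51e-08). With osimertinib it stood at 188 and 214 (log2 change -0.13 ± 0.076, adjusted p = 0.133). SNHG29 was called lower with osimertinib in 4 alternatives, among them without osimertinib replicate 2 (-0.23, adjusted p = 0.0289), without the filter on low counts (-0.22, adjusted p = 0.0114) and with 1 fit per cell line (-0.19, adjusted p = 0.0281). ZFAS1, transcribed antisense to the start of ZNFX1, rose from 42.2 and 38.7 to 67.2 and 65.5 with erlotinib (log2 change 0.71 ± 0.084, adjusted p = 2.45e-08) and had 40.6 and 39.3 with osimertinib, overlapping T0. The rise was also called for the less abundant SNHG8, from 12.1 and 10.02 to 22.1 and 22.8 (log2 change 1.02 ± 0.14, adjusted p = 1.85e-07), and for SNHG5, from 16.1 and 14.5 to 27.9 and 23.5 (log2 change 0.75 ± 0.13, adjusted p = 1.03e-05). Neither was called with osimertinib, where SNHG8 had 11.9 and 13.7 and SNHG5 17.9 and 18.6. SNHG19 moved least of the 10, from 9.23 and 8.24 to 11.3 and 12.5 (log2 change 0.44 ± 0.16, adjusted p = 0.0166). Its call was lost without T0 replicate 2 (0.36) or erlotinib replicate 2 (0.37). It was also lost with DESeq2 (0.42, adjusted p = 0.0939) and without the filter on low counts (0.38, adjusted p = 0.0658). SNHG14 and SNHG18, the other members that rose, are described with their neighbours below.

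The 8 members that fell after erlotinib in PC9 were called lower after osimertinib as well, which shares its T0 libraries. SNHG15, the host of SNORA9, fell most, from 43.5 and 41.9 normalized CPM at T0 to 16.03 and 15.03 with erlotinib and 14.4 and 11.4 with osimertinib (log2 change -1.46 ± 0.11, adjusted p = 2.87e-12, and -1.72 ± 0.11, adjusted p = 1.77e-13). SNHG17, the host of the SNORA71 snoRNAs, went from 43.6 and 39.1 to 16.1 and 16.7 with erlotinib and 14.1 and 12.1 with osimertinib (log2 change -1.33 ± 0.11 and -1.66 ± 0.12). SNHG1, which carries 8 box C/D snoRNAs, went from 113 and 116 to 58.7 and 63.1 with erlotinib and 35.1 and 34.9 with osimertinib. These changes were 1.88-fold (log2 -0.91 ± 0.084, adjusted p = 2.08e-10) and 3.27-fold (log2 -1.71 ± 0.088, adjusted p = 8.04e-16). In all these genes the T0 libraries were higher than each treated library.

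SNHG26 fell from 17.7 and 14.1 to 8.02 and 8.003 with erlotinib and 6.57 and 6.22 with osimertinib (log2 change -0.99 ± 0.17 and -1.31 ± 0.17). SNHG30, the host of SNORD7, went from 7.16 and 5.68 to 3.72 and 3.51 with erlotinib and 2.91 and 3.03 with osimertinib (log2 change -0.83 ± 0.20 and -1.11 ± 0.21). SNHG4, the host of SNORA74A, went from 48.3 and 43.2 to 32.7 and 30.6 with erlotinib and 21.5 and 20.9 with osimertinib (log2 change -0.53 ± 0.14 and -1.11 ± 0.15). The falls were smaller in SNHG3, from 51.6 and 49.6 to 38.97 and 40.4 with erlotinib and 36.4 and 34.5 with osimertinib (log2 change -0.35 ± 0.096 and -0.51 ± 0.098), and in SNHG16, from 44.9 and 43.8 to 38.8 and 32.9 with erlotinib and 31.7 and 27.02 with osimertinib (log2 change -0.31 ± 0.099, adjusted p = 0.00829, and -0.59 ± 0.10, adjusted p = 1.18e-05). SNHG16 was no longer called with erlotinib without erlotinib replicate 2 (-0.20, adjusted p = 0.154) or under upper quartile normalization (-0.22, adjusted p = 0.0627). SNHG12 was called lower only with osimertinib, with 27.3 and 22.9 at T0, 21.01 and 21.2 with erlotinib and 19.9 and 16.4 with osimertinib (log2 change -0.25 ± 0.11, adjusted p = 0.0582, and -0.46 ± 0.12, adjusted p = 0.00106). Its erlotinib value was called under RLE normalization (-0.27, adjusted p = 0.0389) and without the filter on low counts (-0.31, adjusted p = 0.0270). It was also called with 1 fit per cell line (-0.29, adjusted p = 0.0343) and with the replicate number as a block (-0.25, adjusted p = 0.0426). Without T0 replicate 2 it was -0.38. Whether SNHG12 was called with erlotinib in PC9 thus depended on the fit. SNHG11, a host of SNORA71E and SNORA60, was called higher with osimertinib, at 15.2 and 16.5 against 12.4 and 11.99 at T0 (log2 change 0.38 ± 0.13, adjusted p = 0.0134). That call was lost without T0 replicate 2 (0.35) or osimertinib replicate 2 (0.32). It was also lost with DESeq2 (0.37, adjusted p = 0.0501) and without the filter on low counts (0.29, adjusted p = 0.0995). With erlotinib the SNHG11 libraries had 15.5 and 13.7.

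**Figure D3:**
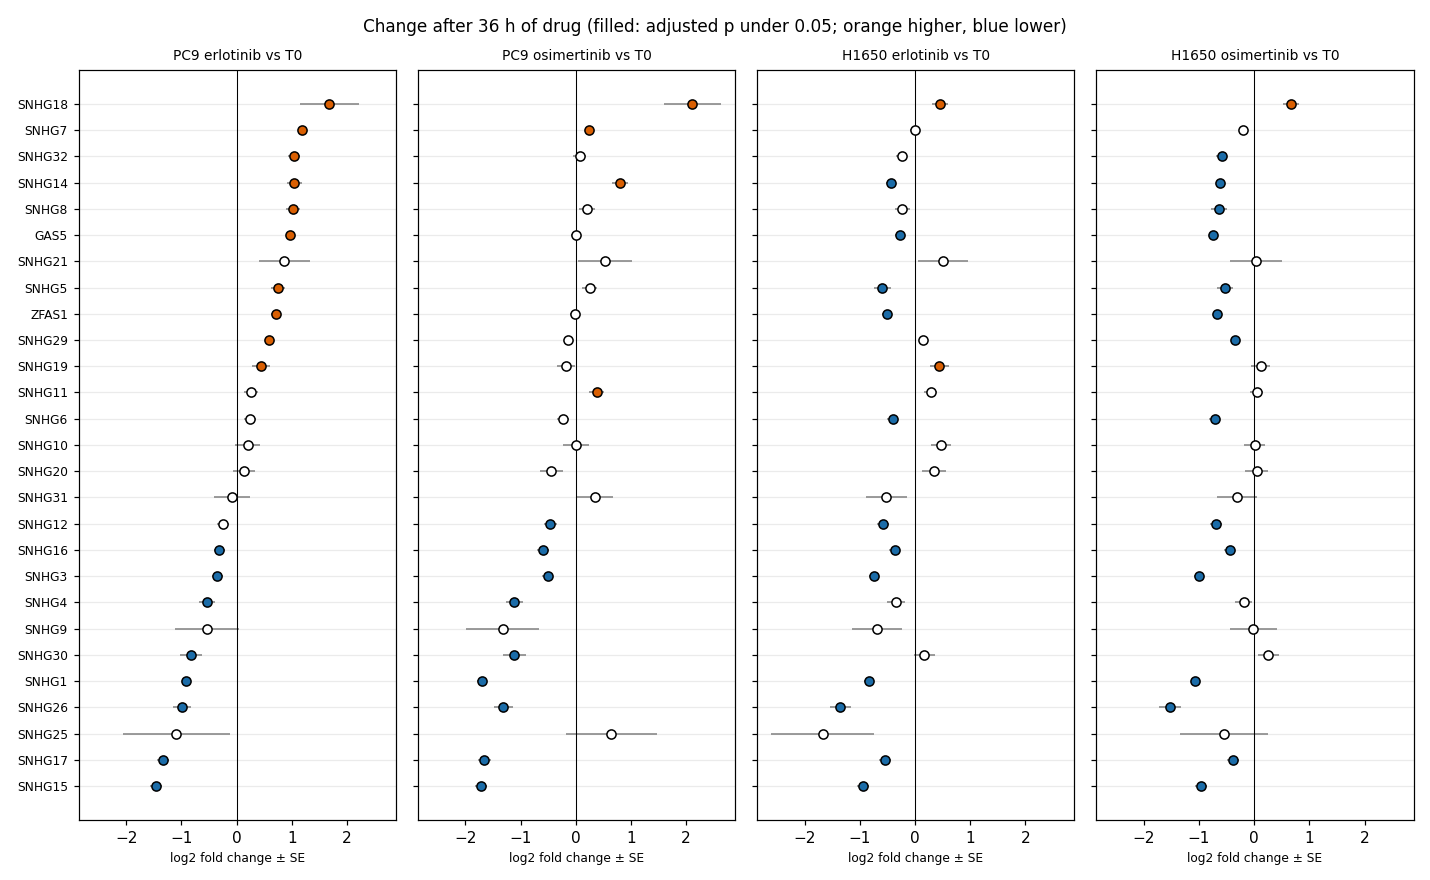
Log2 fold change (horizontal axes, with the standard error) of the 27 tested members after 36 h of each drug against T0 of the same line. Filled points have an adjusted p under 0.05, orange for higher and blue for lower. The left panel has 10 orange and 8 blue points, and blue points outnumber orange ones in the other panels (9 against 4, 12 against 2 and 15 against 1).

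Compared directly within PC9, osimertinib-treated cells had less of 12 members than erlotinib-treated cells and more of 0 (44.4% of the members called, against 16.6% of all tested genes). Among all tested genes, 6.41% were lower and 10.1% higher. The median log2 difference was -0.33 over the members and 0.0036 over all genes. The 12 were 8 of the 10 members that rose with erlotinib (all but SNHG14 and SNHG18), both SNHG1 and SNHG4 among those that fell, and SNHG6 and SNHG20. The erlotinib libraries enter this comparison and the one that chose the 10, so that count is a description. SNHG32 and GAS5 differed most, each 1.96-fold (log2 difference -0.97 ± 0.11, adjusted p = 8.47e-08, and -0.97 ± 0.082, adjusted p = 7.71e-10). SNHG7 was 1.92-fold lower with osimertinib (log2 difference -0.94 ± 0.079, adjusted p = 6.16e-10), SNHG8 1.76-fold, SNHG1 1.74-fold, and ZFAS1 and SNHG29 each 1.66-fold. The differences in SNHG19, SNHG20, SNHG4, SNHG5 and SNHG6 lay between -0.62 and -0.47, and each lost its call in at least 1 fit that left out a library. Without erlotinib replicate 1, SNHG5 was at -0.37, adjusted p = 0.12, and without osimertinib replicate 1, SNHG5 was at -0.46, adjusted p = 0.0636, SNHG6 at -0.39, adjusted p = 0.0619, and SNHG19 at -0.54, adjusted p = 0.0915. Without osimertinib replicate 2, SNHG4 was at -0.56, adjusted p = 0.0559. Without erlotinib replicate 2, SNHG19 was at -0.55, adjusted p = 0.0664. SNHG20 lost its call without any of the 4 libraries compared (-0.67 to -0.50) and with DESeq2 (-0.57, adjusted p = 0.128).

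In H1650, 3 members were lower with osimertinib than with erlotinib and 0 were higher (11.1%, against 8.75% of all tested genes, 3.73% lower and 5.02% higher). They were SNHG29, at 133 and 141 normalized CPM with erlotinib and 94.5 and 99.8 with osimertinib (log2 difference -0.50 ± 0.078, adjusted p = 7.42e-05), GAS5 (log2 difference -0.46 ± 0.083, adjusted p = 3.56e-04) and SNHG32 (log2 difference -0.34 ± 0.11, adjusted p = 0.042). All 3 belong to the 12 found in PC9. The call of SNHG32 was lost without any of the 4 H1650 libraries compared and without either PC9 T0 library, with log2 differences between -0.35 and -0.33. It was also lost with DESeq2 (-0.34, adjusted p = 0.0894), under RLE normalization (-0.34, adjusted p = 0.0518) and without the filter on low counts (-0.33, adjusted p = 0.0813). Whether the difference between the drugs was itself larger in PC9 was not tested.

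**Figure D4:**
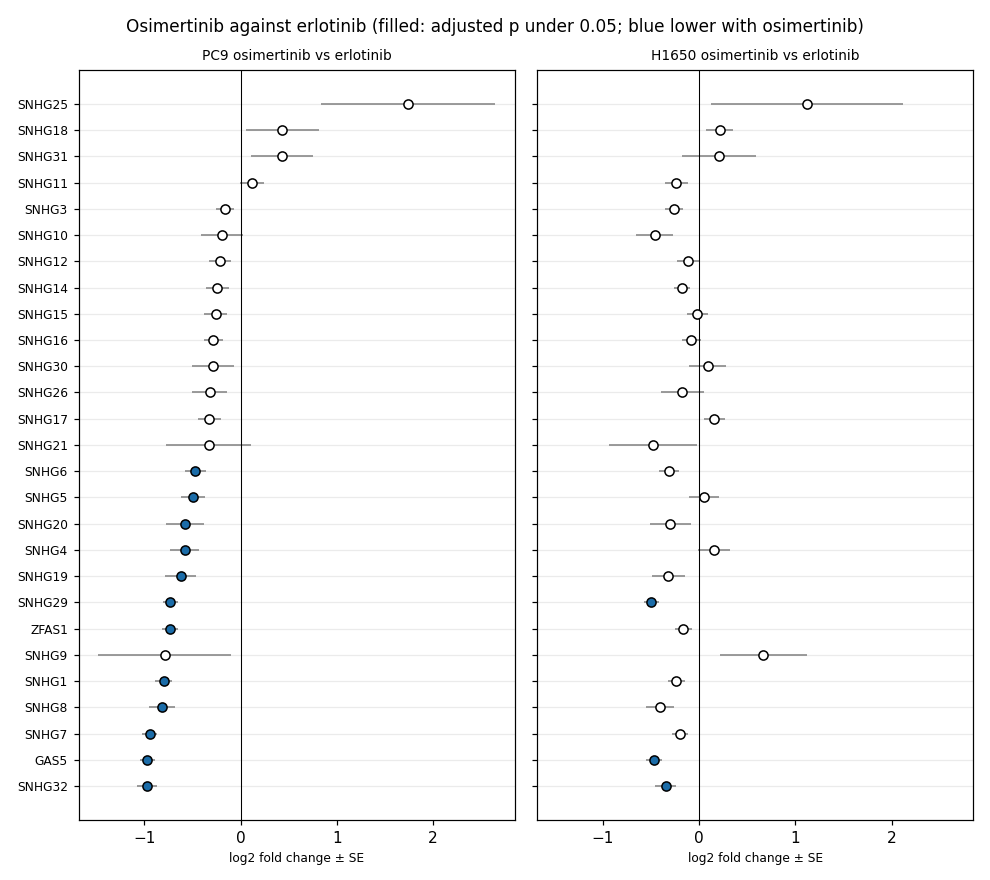
Log2 difference (horizontal axes, with the standard error) of osimertinib against erlotinib for the 27 tested members in each line. Filled blue points are lower with osimertinib at an adjusted p under 0.05. There are 12 such points in PC9 and 3 in H1650, and SNHG25, the rightmost, rests on at most 11 reads a library.

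In H1650 cells, 14 of the 27 members changed after erlotinib (51.9%, against 36.5% of all tested genes), 2 higher and 12 lower. After osimertinib 16 changed (59.3%, against 35.7%), 1 higher and 15 lower. The members called lower were 44.4% and 55.6% of the list, beside 18.5% and 17.9% of all tested genes. Those called higher were 7.41% and 3.7% of the list, beside 18% and 17.8% of all tested genes. The medians were -0.37 and -0.45, against 0.0051 and 0 over all genes. The 12 that fell with both drugs included 6 that fell with both in PC9 too (SNHG1, SNHG15, SNHG16, SNHG17, SNHG26 and SNHG3). GAS5, SNHG14, SNHG5 and ZFAS1, also among the 12, rose with erlotinib in PC9. The others were SNHG12, called lower in PC9 with osimertinib, and SNHG6, not called in PC9 against T0.

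SNHG1 went from 116 and 129.7 normalized CPM at T0 in H1650 to 65.6 and 72.7 with erlotinib and 54.9 and 62.7 with osimertinib (log2 change -0.83 ± 0.083, adjusted p = 6.38e-09, and -1.07 ± 0.084, adjusted p = 7.34e-11). SNHG3, the host of SNORA73A and SNORA73B, went from 94.9 and 109 to 57.7 and 64.8 with erlotinib and 46.4 and 55.7 with osimertinib (log2 change -0.74 ± 0.091, adjusted p = 2.50e-07, and -1.0 ± 0.092, adjusted p = 1.49e-09). SNHG15 went from 39.6 and 42.02 to 20.9 and 21.6 with erlotinib and 19.7 and 22.3 with osimertinib (log2 change -0.94 ± 0.11 and -0.96 ± 0.11). Treated and T0 libraries did not overlap in these genes. SNHG26 was at 8.44 and 9.65 at T0 and at 3.72 and 3.40 with erlotinib and 2.48 and 3.79 with osimertinib, the largest fall of a called member (log2 change -1.35 ± 0.19 and -1.52 ± 0.19).

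SNHG12 went from 34.4 and 38.9 to 24.3 and 25.1 with erlotinib and 22.6 and 22.9 with osimertinib (log2 change -0.57 ± 0.11 and -0.69 ± 0.11). SNHG6 went from 36.8 and 36.8 to 28.9 and 26.8 with erlotinib and 23.6 and 21.3 with osimertinib (log2 change -0.40 ± 0.100 and -0.71 ± 0.10), while in PC9 it had 20.5 and 19.3 at T0, 22.9 and 23.9 with erlotinib and 16.05 and 17.9 with osimertinib and was not called against T0. In PC9 the erlotinib change of SNHG6 was called higher in 3 alternatives (0.33, adjusted p = 0.00744 under upper quartile normalization) and its osimertinib change lower in 2 (-0.32, adjusted p = 0.0353 without the filter). SNHG17 went from 35.03 and 41.2 to 25.95 and 26.4 with erlotinib and 27.1 and 31.2 with osimertinib (log2 change -0.54 ± 0.11, adjusted p = 1.79e-04, and -0.39 ± 0.11, adjusted p = 0.00466). Its osimertinib call was lost without T0 replicate 2 (-0.26, adjusted p = 0.135) or osimertinib replicate 1 (-0.29, adjusted p = 0.105). SNHG16 went from 60.8 and 53.7 to 42.2 and 46.5 with erlotinib and 42.8 and 41.3 with osimertinib (log2 change -0.37 ± 0.097, adjusted p = 0.00354, and -0.45 ± 0.097, adjusted p = 5.67e-04). Its erlotinib call was lost without T0 replicate 1 (-0.28, adjusted p = 0.0743) or erlotinib replicate 1 (-0.30, adjusted p = 0.0642). The spread between replicates of SNHG4 was wide, with 17.1 and 23.96 at T0, 15.7 and 16.8 with erlotinib and 13.7 and 22.4 with osimertinib, and neither change was called (log2 change -0.35 ± 0.16 and -0.19 ± 0.16). The erlotinib change of SNHG4 was called lower in 5 alternatives, among them without T0 replicate 1 (-0.56, adjusted p = 0.00751) and without either osimertinib library, and lay between -0.56 and -0.078 over all alternatives. Its osimertinib change was called without osimertinib replicate 2 (-0.60, adjusted p = 0.00538). SNHG30 was not called either, with 4.62 and 5.32 at T0, 5.42 and 5.77 with erlotinib and 5.87 and 6.06 with osimertinib, nor was SNHG11, with 18.7 and 21.95 at T0, 26.9 and 22.8 with erlotinib and 21.6 and 20.6 with osimertinib.

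The members that rose with erlotinib in PC9 mostly fell or were not called in H1650. GAS5 was at 113 and 130.2 normalized CPM at T0, 93.8 and 107 with erlotinib and 70.2 and 75.2 with osimertinib. It fell with both drugs (log2 change -0.28 ± 0.082, adjusted p = 0.00782, and -0.74 ± 0.083, adjusted p = 4.28e-08), although the erlotinib call was lost without T0 replicate 2 (-0.17, adjusted p = 0.206) or erlotinib replicate 1 (-0.19, adjusted p = 0.173). ZFAS1 went from 57.9 and 56.2 to 38.8 and 41.5 with erlotinib and 34.5 and 37.3 with osimertinib (log2 change -0.51 ± 0.085, adjusted p = 2.42e-05, and -0.67 ± 0.085, adjusted p = 4.21e-07). SNHG5 went from 11.3 and 10.9 to 7.33 and 7.45 with erlotinib and 8.64 and 6.73 with osimertinib (log2 change -0.59 ± 0.15 and -0.54 ± 0.15), where the osimertinib call was lost without osimertinib replicate 2 (-0.36, adjusted p = 0.128). SNHG8 and SNHG32 were called lower with osimertinib and not with erlotinib. SNHG8 was at 15.3 and 15.01 at T0, 14.4 and 11.5 with erlotinib and 9.16 and 10.3 with osimertinib. SNHG32 was at 34.4 and 28.3 at T0, 26.4 and 26.4 with erlotinib and 21.0 and 20.6 with osimertinib. The erlotinib change of SNHG32 (-0.24) was called in 3 alternatives, among them without T0 replicate 2 (-0.38, adjusted p = 0.0173) and under RLE normalization (-0.27, adjusted p = 0.0495). SNHG7 was not called, at 42.2 and 41.7 at T0, 40.8 and 43.1 with erlotinib and 37.3 and 35.8 with osimertinib. SNHG29 had 118 and 129 at T0 and 133 and 141 with erlotinib, which was not called (log2 change 0.15 ± 0.078, adjusted p = 0.149), and was lower with osimertinib (log2 change -0.35 ± 0.078, adjusted p = 7.62e-04). SNHG19 rose with erlotinib, from 5.83 and 6.13 to 7.53 and 8.71, and had 7.40 and 5.66 with osimertinib. Its call (log2 change 0.44 ± 0.17, adjusted p = 0.0425) was lost without either T0 replicate (0.40 and 0.48) and without erlotinib replicate 2 (0.32). It was also lost under DESeq2 (0.42, adjusted p = 0.143) and RLE normalization (0.42, adjusted p = 0.0542). The same held without the filter on low counts (0.42, adjusted p = 0.0940) and with 1 fit per cell line (0.44, adjusted p = 0.0510).

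Whether a drug changed a member differently in the lines was tested as the H1650 log2 change less that of PC9. With erlotinib it was called for 13 members (48.1%, against 40.8% of all tested genes), 3 with a higher and 10 with a lower value in H1650. That was 11.1% and 37.0% of the members, against 21.1% and 19.8% of all tested genes. Of the 10 members that rose with erlotinib in PC9, 8 had a lower change in H1650 and SNHG18 and SNHG19 did not pass the test. The PC9 libraries that chose the 10 enter this test too, so the count is a description. The differences were -1.49 ± 0.16, adjusted p = 8.54e-09 for SNHG14, -1.34 ± 0.19, adjusted p = 2.10e-06 for SNHG5 and -1.29 ± 0.15, adjusted p = 3.98e-08 for SNHG32. They were -1.25 ± 0.12, adjusted p = 6.18e-10 for GAS5, -1.22 ± 0.12, adjusted p = 2.07e-09 for ZFAS1 and -1.19 ± 0.12, adjusted p = 1.86e-09 for SNHG7. SNHG30, SNHG17 and SNHG15, which fell in PC9, had a higher value in H1650, with differences of 0.99 ± 0.28, 0.79 ± 0.15 and 0.52 ± 0.15. With osimertinib the test called 15 members (55.6%, against 41.9% of all tested genes), 5 higher and 10 lower in H1650. That was 18.5% and 37.0% of the members, against 21.5% and 20.5% of all tested genes. SNHG30 and SNHG17 again differed most upward (1.37 ± 0.28, adjusted p = 2.41e-04, and 1.27 ± 0.16, adjusted p = 1.38e-07), followed by SNHG4 at 0.92 ± 0.22, and SNHG14 and SNHG8 differed downward by -1.42 ± 0.16 and -0.84 ± 0.20. SNHG18 was called at -1.44 ± 0.54, adjusted p = 0.0339, but not without PC9 T0 replicate 1 (-1.05, adjusted p = 0.218) or PC9 osimertinib replicate 2 (-1.11, adjusted p = 0.18). The call of SNHG3 with erlotinib (-0.39) was lost without PC9 T0 replicate 2, PC9 erlotinib replicate 2, H1650 T0 replicate 2 or H1650 erlotinib replicate 1 (adjusted p from 0.0522 to 0.140), and with osimertinib (-0.49) without H1650 osimertinib replicate 1 (-0.35, adjusted p = 0.0611). That of SNHG6 with osimertinib (-0.48) was lost without PC9 T0 replicate 2 (-0.43), PC9 osimertinib replicate 2 (-0.40) or H1650 osimertinib replicate 2 (-0.39). It was also lost without the filter on low counts (-0.40, adjusted p = 0.0731). Both tests share the T0 libraries of each line.

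SNHG14 spans 440880 bases of chromosome 15 (chr15:24978583-25419462, plus strand, GENCODE 29 on GRCh38), and its exons overlap those of SNRPN on the same strand and UBE3A on the opposite strand. Its level went in opposite directions in the lines. In PC9 it was low and rose, from 5.04 and 4.99 normalized CPM at T0 to 10.4 and 10.3 with erlotinib and 9.90 and 7.46 with osimertinib (log2 change 1.04 ± 0.13, adjusted p = 1.23e-07, and 0.80 ± 0.14, adjusted p = 1.68e-05). In H1650 it was high and fell, from 219 and 226 to 158 and 169 with erlotinib and 138 and 151 with osimertinib (log2 change -0.44 ± 0.080, adjusted p = 6.96e-05, and -0.62 ± 0.080, adjusted p = 5.68e-07). Treated and T0 libraries did not overlap in either line. SNRPN changed with the same sign in PC9 (log2 change 1.33, adjusted p = 1.72e-04 with erlotinib) and was not called in H1650 (log2 change 0.21, adjusted p = 0.371), and UBE3A, the ubiquitin ligase gene, was called lower in PC9 (log2 change -0.34, adjusted p = 4.82e-04) and not in H1650 (-0.01, adjusted p = 0.935). Whether the counting used the strand is not stated, so reads where exons overlap cannot be told apart between these genes.

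SNHG18, the host of SNORD123 on chromosome 5, starts 125 bases from SEMA5A, a semaphorin gene on the opposite strand. It was called higher with both drugs in both lines, the only member with that pattern. In PC9 it went from 0.151 and 0.296 normalized CPM to 1.07 and 0.429 with erlotinib and 0.786 and 1.23 with osimertinib (log2 change 1.68 ± 0.53, adjusted p = 0.00748, and 2.11 ± 0.51, adjusted p = 7.53e-04), on few reads, so that the size of its change is poorly fixed. The erlotinib call was lost without T0 replicate 1 (1.28, adjusted p = 0.0836) or erlotinib replicate 1 (0.92, adjusted p = 0.231). In H1650, where it is well expressed, it went from 18.98 and 19.8 to 28.8 and 24.4 with erlotinib and 30.6 and 31.04 with osimertinib (log2 change 0.46 ± 0.14, adjusted p = 0.0112, and 0.67 ± 0.14, adjusted p = 3.23e-04). The erlotinib call in H1650 was also lost without T0 replicate 1 (0.43, adjusted p = 0.0608) or erlotinib replicate 1 (0.34, adjusted p = 0.158). SEMA5A had a mean of 0.0746 normalized CPM in PC9 and 101 in H1650 at T0. Its log2 change in H1650 was 0.42, adjusted p = 0.00158 with erlotinib and 0.25, adjusted p = 0.0627 with osimertinib. In PC9, from that low level, it was 2.24, adjusted p = 0.0251 with erlotinib and 3.09, adjusted p = 9.30e-04 with osimertinib.

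Other members also have a neighbour whose starts or exons meet theirs. SNHG1 starts 188 bases from SLC3A2, the heavy chain of several amino acid transporters, on the opposite strand. SLC3A2 rose with erlotinib in PC9 (log2 change 0.68, adjusted p = 3.77e-09), where SNHG1 fell, and was not called with osimertinib (0.11, adjusted p = 0.202). In H1650, SLC3A2 was not called with erlotinib (0.0057, adjusted p = 0.978) and fell with osimertinib (-0.80, adjusted p = 1.61e-09), where SNHG1 fell with both drugs. ZFAS1 overlaps 249 exon bases of ZNFX1 on the opposite strand, and ZNFX1 was higher with erlotinib in PC9 (log2 change 0.43, adjusted p = 1.82e-05) and also in H1650 (0.31, adjusted p = 0.00118), where ZFAS1 fell. SNHG3 shares 242 exon bases with RCC1 on the same strand, and RCC1 was not called in PC9 (-0.15, adjusted p = 0.0635 with erlotinib) and fell in H1650 (-0.70, adjusted p = 1.05e-08). SNHG4 shares 626 exon bases with MATR3, which was lower in PC9 with erlotinib (-0.44, adjusted p = 1.19e-05) and osimertinib (-0.43, adjusted p = 1.81e-05). MATR3 was also lower in H1650 with erlotinib (-0.25, adjusted p = 0.00987) and osimertinib (-0.26, adjusted p = 0.00906), where SNHG4 was not called. SNHG7 overlaps 1094 exon bases of DIPK1B on the opposite strand, which was higher with erlotinib in PC9 (0.64, adjusted p = 1.25e-04) and in H1650 (0.37, adjusted p = 0.0389). SNHG29 overlaps 452 exon bases of LRRC75A, which fell with erlotinib in PC9 (-1.19, adjusted p = 1.98e-06), where SNHG29 rose, and was not called in H1650 (-0.39, adjusted p = 0.363). Counts in shared bases could belong to either gene of a pair.

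The RefSeq promoter table used here holds a start for 26 of the 30 members. A run of at least 5 pyrimidines beginning with C exactly at that start, the pattern of a TOP motif, was found in 7 of the 26 (26.9%) and in 4.07% of all 35116 RefSeq promoters. The 7 were SNHG12, SNHG18, SNHG4, SNHG32, SNHG5, SNHG19 and ZFAS1. With erlotinib in PC9, 5 of them were called higher (SNHG18, SNHG19, SNHG32, SNHG5 and ZFAS1), SNHG4 was called lower and SNHG12 was not called. Of the 16 tested members with a start but without such a run, 5 were called higher and 6 lower. Of all tested genes, 32.7% were called higher and 29.1% lower there. The calls of SNHG18 and SNHG19 did not hold in all fits, as given above. With osimertinib in PC9, 1 of the 7 was called higher and 2 lower, and 3 of the 16 without such a run were higher and 6 lower. The shares of all tested genes were 32.7% higher and 28.7% lower. In H1650, 2 of the 7 were higher and 3 lower with erlotinib, and 1 higher and 4 lower with osimertinib. Among the 16 without such a run, 7 were lower and 9 not called with erlotinib, and 9 lower and 7 not called with osimertinib. The shares of all tested genes in H1650 were 18% higher and 18.5% lower with erlotinib, and 17.8% and 17.9% with osimertinib. Whether such a start had a part in these changes was not tested. The following windows hold 20 bases before the start and 30 from it, on GRCh38.p14, 5′ to 3′ along the gene, and the capitals mark the run of pyrimidines from a C at the start, where a run under 5 did not count. The start given for GAS5 is 1 annotated position, and no run begins there.
SNHG12, chr1:28581844-28581893, minus strand: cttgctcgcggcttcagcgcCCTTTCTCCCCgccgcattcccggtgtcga
SNHG4, chr5:139274081-139274130, plus strand: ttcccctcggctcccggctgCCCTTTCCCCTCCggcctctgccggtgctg
SNHG18, chr5:9546180-9546229, plus strand: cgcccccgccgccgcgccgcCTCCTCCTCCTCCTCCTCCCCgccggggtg
SNHG19, chr16:2155329-2155378, minus strand: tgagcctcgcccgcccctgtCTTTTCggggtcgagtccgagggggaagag
SNHG5, chr6:85678704-85678753, minus strand: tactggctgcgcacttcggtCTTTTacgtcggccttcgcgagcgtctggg
ZFAS1, chr20:49278622-49278671, plus strand: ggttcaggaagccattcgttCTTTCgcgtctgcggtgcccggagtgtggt
SNHG7, chr9:136728155-136728204, minus strand: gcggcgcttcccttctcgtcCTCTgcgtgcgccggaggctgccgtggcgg
SNHG1, chr11:62855856-62855905, minus strand: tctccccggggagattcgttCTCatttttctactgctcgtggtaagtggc
GAS5, chr1:173869016-173869065, minus strand: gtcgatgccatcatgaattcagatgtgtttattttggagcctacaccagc
SNHG17, chr20:38435299-38435348, minus strand: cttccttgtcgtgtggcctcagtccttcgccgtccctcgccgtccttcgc

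From 250 bases before to 50 after each start, the E-box CACGTG, which reads the same on both strands and is bound by MYC and other factors, was found in SNHG7 and SNHG30, which is 7.69% of the 26 members and 7.26% of all promoters. The letters TGATGNAA, a pattern of ATF4 and CEBP response elements, were found on either strand in 0 members and in 3.62% of all promoters. A match shows only that the letters are present in this window.

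Of the 145 hosted snoRNAs, 131 have a row of their own in the count table, and together these rows held 26 to 349 reads per library. Mature snoRNAs carry no poly(A) tail, and the libraries were of polyA RNA. Only 5 passed the filter on low counts. SNORA73B of SNHG3, with 12 to 253 reads a library, was lower in H1650 with erlotinib (log2 change -2.04 ± 0.29, adjusted p = 2.30e-06) and with osimertinib (log2 change -2.38 ± 0.30, adjusted p = 3.10e-07), as was SNHG3. In PC9 it was called lower with osimertinib only (log2 change -1.30 ± 0.43, adjusted p = 0.0108). SNORA71B of SNHG17, with 2 to 31 reads, was lower in PC9 with erlotinib (log2 change -2.92 ± 0.58, adjusted p = 8.29e-05) and with osimertinib (log2 change -2.83 ± 0.60, adjusted p = 1.78e-04). In H1650, where SNHG17 was called lower with both drugs, SNORA71B was not called (log2 change -0.60 ± 0.48, adjusted p = 0.357, and 0.019 ± 0.45, adjusted p = 0.995). SNORD12C of ZFAS1, with 2 to 15 reads, was called lower with osimertinib in PC9 (log2 change -2.16 ± 0.90, adjusted p = 0.0401), where ZFAS1 was not called. SNORD99 of SNHG12 and SNORD104 of SNHG25 were not called in any drug comparison. These counts describe fragments of precursor or snoRNA that entered the libraries, and not the amount of mature snoRNA.

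Genes that act with the hosts were examined in the same fit. Of 18 proteins of the snoRNA particles and their assembly factors, 17 fell and 1 rose in PC9 with each drug (medians -0.89 and -0.93). In H1650, 14 fell and 1 rose with erlotinib and 11 fell and 2 rose with osimertinib (medians -0.41 and -0.33). NOP56 and NOP58, core proteins of box C/D particles, had the lowest mean log2 change over the 4 drug comparisons (-1.44 and -1.07). With erlotinib they were at -2.03 and -1.78 in PC9 and at -0.72 and -0.42 in H1650, where NOP58 was near the median of the list. ZNHIT3, an assembly factor, was the gene that rose in PC9 (0.37, adjusted p = 0.00626 with erlotinib), and PIH1D1, of the R2TP assembly complex, fell in PC9 (-0.36, adjusted p = 0.00101) and rose in H1650 (0.58, adjusted p = 1.30e-05). Of all tested genes, 29.1% and 28.7% fell in PC9 with erlotinib and osimertinib, and 18.5% and 17.9% in H1650. Those that rose were 32.7% with each drug in PC9, and 18% and 17.8% in H1650.

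Of 24 protein-coding genes that host snoRNAs in their introns, 18 fell and 4 rose with erlotinib in PC9, and 19 fell and 2 rose with osimertinib (medians -0.71 and -0.82). In H1650, 17 fell with each drug, and 3 and 2 rose (medians -0.34 and -0.31). Beside these, 29.1% and 28.7% of all tested genes fell in PC9 with erlotinib and osimertinib, and 18.5% and 17.9% in H1650. The shares that rose were 32.7% with each drug in PC9, and 18% and 17.8% in H1650. HSPA8, the constitutive HSP70 chaperone, fell in all 4 comparisons, by a log2 change of -1.69 with erlotinib in PC9 and -1.0 in H1650. EIF4A2, a translation initiation helicase, rose in PC9 (0.93, adjusted p = 2.90e-12) and was not called in H1650 (-0.05). NOP56, NOP58 and DKC1 are in this list and in that of the particle proteins. Osimertinib-treated PC9 cells had less of 8 of the 24 than erlotinib-treated cells and more of 0 (6.41% and 10.1% of all tested genes). In H1650, 2 of the 24 were lower with osimertinib than with erlotinib and 0 higher (3.73% and 5.02% of all tested genes).

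Translation genes with a known TOP start, of which 16 of 17 were tested (EEF1G was not), were 8 higher and 4 lower with erlotinib in PC9 (median 0.14) and 5 higher and 8 lower with osimertinib (median -0.18). In H1650, 2 were higher and 10 lower with erlotinib, and 2 higher and 8 lower with osimertinib (medians -0.21 and -0.20). Beside these, 32.7% of all tested genes were higher with each drug in PC9, and 29.1% and 28.7% lower with erlotinib and osimertinib. For H1650 the shares were 18% and 17.8% higher, and 18.5% and 17.9% lower. In the direct comparison in PC9, 10 of the 16 were lower with osimertinib and 0 higher (median -0.26), beside 6.41% and 10.1% of all tested genes. PABPC1, the cytoplasmic poly(A) binding protein, was at 0.01 with erlotinib and -0.39 with osimertinib in PC9 (adjusted p = 8.23e-06 for the latter), and NAP1L1, a histone chaperone, at -0.50 and -0.77, both called. EIF4B, an initiation factor, rose with each drug in both lines (0.78 with erlotinib in PC9 and 0.28 in H1650), as did TPT1 (0.67 and 0.63). EEF1B2, EEF2, RACK1 and TPT1 are also in the list of protein-coding hosts. TPT1, PABPC1 and other genes of the list have processed pseudogenes that could share reads with them.

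Of 14 factors of nonsense-mediated decay, 2 rose and 6 fell with erlotinib in PC9, and 1 rose and 6 fell with osimertinib. In H1650, 4 fell and 0 rose with each drug. Beside these, 32.7% of all tested genes rose with each drug in PC9, and 29.1% and 28.7% fell with erlotinib and osimertinib. For H1650 the shares were 18% and 17.8% that rose, and 18.5% and 17.9% that fell. SMG9 fell in all 4 comparisons (-0.66 with erlotinib in PC9 and -0.47 in H1650). MAGOH, of the exon junction complex, fell with both drugs in PC9 (-0.61 with erlotinib). SMG6, the endonuclease of the pathway, and UPF3A rose with erlotinib in PC9 (0.44, adjusted p = 1.53e-04, and 0.35, adjusted p = 0.00404).

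Among snoRNA host lncRNAs with other names, EPB41L4A-AS1 rose in PC9 with erlotinib and osimertinib (log2 change 1.57 and 1.11) and was lower with osimertinib than with erlotinib (-0.45, adjusted p = 0.0161), and was not called in H1650. DANCR fell in PC9 with both drugs (-0.22 and -0.45) and in H1650 with osimertinib (-0.72), while MEG8 was below the filter. For comparison, 21 lncRNAs that are not snoRNA hosts by name included 13 that rose and 3 that fell with erlotinib in PC9, and 11 and 5 with osimertinib. In H1650, 6 rose and 5 fell with erlotinib, and 5 and 6 with osimertinib. Beside these, 32.7% of all tested genes rose with each drug in PC9, and 29.1% and 28.7% fell with erlotinib and osimertinib. For H1650 the shares were 18% and 17.8% that rose, and 18.5% and 17.9% that fell. In the direct comparison of the drugs in PC9, MIR22HG was higher with osimertinib (0.81) and CRNDE lower (-1.61), and the other 19 of the 21 were not called. CYTOR and DLEU2 fell with erlotinib in PC9 by log2 changes of -2.66 and -2.93, and HCP5, in the major histocompatibility complex, rose in all 4 comparisons (1.19 with erlotinib in PC9). H19, an imprinted lncRNA, rose in PC9 (3.49 with erlotinib and 5.11 with osimertinib) and was not called in H1650.

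The remaining tested members were SNHG10, SNHG20, SNHG21, SNHG25, SNHG31 and SNHG9, and none of these 6 was called against T0 with either drug in either line. SNHG10, the host of SCARNA13, had 2.81 to 9.36 normalized CPM over the 12 libraries, and its log2 change with erlotinib in H1650 was 0.47 ± 0.19, adjusted p = 0.0509. SNHG20, the host of SCARNA16, had 3.78 to 8.37, and SNHG31 had 0.826 to 4.15. SNHG21, SNHG9 and SNHG25 did not exceed 1.77 normalized CPM in any library, and SNHG25 had from 0 to 11 reads, so that only large changes could have been seen in them. Standard errors of their log2 changes with the drugs reached 0.97. SNHG22 had at most 4 reads and SNHG27 at most 10 in a library.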

How the data were processed

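RNA of PC9 and H1650 cells was sequenced as polyA libraries, 2 per group in 6 groups, and samples were grouped by their labels. The authors deposited whole-number read counts per gene, made with featureCounts in the DolphinNext pipeline. The processing notes name GRCh38 and DESeq2. The aligner, gene annotation and strand setting are not given in the sources used here. The counts are not normalized, and the table also holds a gene length, which was used for RPKM.

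Genes were kept by edgeR's filterByExpr by group (19108 of 60591, with 41483 left out), scaled by TMM factors (0.941 to 1.08), and tested with edgeR 4.0.16 (quasi-likelihood, R 4.3.3) in 1 fit of 12 libraries with a term per group. Calls are at a Benjamini-Hochberg adjusted p under 0.05 over all genes tested, values after ± on a log2 scale are standard errors, and the biological coefficient of variation was 0.0656. Replicates differed by more than counting noise (chi-square per degree of freedom 3.78 to 6.56). DESeq2 1.42.0 and other settings were alternatives. The script was tested on simulated data.

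Members and lists were chosen with earlier results of these data known. Values in every library are given for members with a mean of at least 20 normalized CPM over the 12 libraries and, in each comparison, for the 3 highest and 3 lowest log2 changes among called members with a mean of at least 1. Of each list, the 2 highest and 2 lowest called genes by the mean over the 4 drug comparisons are named. Neighbours were chosen by position (starts within 1000 bases or shared exon bases), with examples named after their values were seen, as were MIR22HG and CRNDE. Gene positions and snoRNA sequences came from GENCODE 29, hosted snoRNAs and start windows from RefSeq. SNHG6 and its snoRNA are given without sequence, and 1 marker gene of other cell types is not reported here.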

Additional observations from a re-analysis of the deposited data

Results flagged for a closer look

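The drug changes of 28 member and drug combinations differed between the cell lines by edgeR's test of the difference (adjusted p under 0.05), which is why they are listed. The same test called 40.8% of all tested genes with erlotinib and 41.9% with osimertinib. The values listed are the log2 change in the H1650 line less that in the PC9 line, so a negative value means a lower change in H1650. With erlotinib, 10 members had a negative value, namely SNHG14 (-1.49), SNHG5 (-1.34), SNHG32 (-1.29), GAS5 (-1.25), SNHG8 (-1.25), ZFAS1 (-1.22), SNHG7 (-1.19), SNHG6 (-0.64), SNHG29 (-0.45) and SNHG3 (-0.39), and 3 had a positive value, namely SNHG30 (0.99), SNHG17 (0.79) and SNHG15 (0.52). With osimertinib, 10 members had a negative value, namely SNHG18 (-1.44), SNHG14 (-1.42), SNHG8 (-0.84), SNHG5 (-0.79), GAS5 (-0.75), SNHG32 (-0.66), ZFAS1 (-0.65), SNHG3 (-0.49), SNHG6 (-0.48) and SNHG7 (-0.44), and 5 had a positive value, namely SNHG30 (1.37), SNHG17 (1.27), SNHG4 (0.92), SNHG15 (0.76) and SNHG1 (0.64). The erlotinib and osimertinib values share the T0 libraries of each line. Of these, SNHG3 with either drug, SNHG6 with osimertinib and SNHG18 with osimertinib lost their call in at least 1 fit that left out a library, as given in the report. SNHG18 had 3 and 6 reads at T0 in PC9. No group of 2 libraries could be examined for a sample far from the others.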

How the results depend on the processing

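The number of members called and the log2 changes of the named members were recomputed with DESeq2, with RLE and upper quartile normalization, without the filter, with a stricter one (10 or more counts in all 12 libraries), with 1 fit per cell line (for the 6 comparisons within a line), at an adjusted p under 0.01, with the replicate number as a block, and without each library in turn. The gene lists, neighbours, snoRNA rows and start sequences were not recomputed. The correlations of the deviations of same-numbered replicates lay between -0.067 and 0.0947 over 15 pairs of groups, and 0 were above 0.1. They were taken over all tested genes, low ones included, so they cannot exclude a weak effect shared by replicate number. With the replicate block, 7 members were called between osimertinib and erlotinib in H1650, against 3 without it, and in H1650 SNHG29 was called higher with erlotinib (adjusted p = 0.043) and SNHG7 lower with osimertinib (adjusted p = 0.0211), as under no other alternative run. The summed level was recomputed under RLE and upper quartile normalization, and under the latter it was 1145 normalized CPM in PC9 with erlotinib and 706 with osimertinib. Of 124 calls of members over the 9 comparisons, 26 were lost without at least 1 library. Without 1 library in turn, the number of members called was 16 to 19 for erlotinib and 12 to 13 for osimertinib in PC9, 12 to 15 and 15 to 16 in H1650, 10 to 12 and 2 to 3 between the drugs in PC9 and H1650, 12 to 14 and 13 to 16 between the lines for erlotinib and osimertinib, and 18 to 20 between the lines at T0. The log2 changes that turned sign were not called in the fit as reported. For osimertinib in PC9, GAS5 was at -0.0072 with DESeq2, -0.0062 with RLE normalization, -0.080 without the filter, -0.057 with 1 fit per line, and -0.034 to 0.040 without 1 library; SNHG32 was at -0.015 without the filter; and ZFAS1 was at 0.056 under upper quartile normalization, 0.032 with at least 10 counts, and -0.081 to 0.042 without 1 library. For erlotinib in H1650, SNHG7 was at 0.0098 under upper quartile normalization, 0.020 with at least 10 counts, 0.0035 with 1 fit per line, 0.00056 with the block, and -0.047 to 0.041 without 1 library. For osimertinib in H1650, SNHG4 was at -0.60 to 0.12 without 1 library. The cause of these changes was not tested. With 2 libraries per group, only changes well above the replicate spread could be called, and low members such as SNHG25 gave little information.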
